A study of Mus musculus with 24 samples.

Results

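The NCoR corepressor complex with TBL1 and TBLR1 is described here by the transcripts of 5 genes in mouse brown adipose tissue (BAT), namely Tbl1x, Tbl1xr1 (the gene of TBLR1), Ncor1, Hdac3 and Gps2. The members were taken by gene symbol, through the Ensembl identifiers of the count table, and all 5 were found among its 12615 genes. RNA of 24 mice was sequenced as 3′ tags, and each of the 4 groups, set by labelled genotype and by temperature, had 6 mice. All mice carried floxed alleles of both Tblr1 and Tbl1 (TBLR1 fl/fl;TBL1 fl/fl), and the controls (Cre-) therefore differed from BATdKO mice by the absence of Ucp1CreERT2, a tamoxifen-inducible Cre that is driven by the Ucp1 promoter and acts in Ucp1-expressing cells. All mice received tamoxifen, and temperature treatment began 3 weeks after the last injection. Mice raised at 22°C were either moved straight to 30°C for 4 days or taken through 1 day each at 18°C, 16°C and 12°C and then kept for 6 days at 8°C. The labels call the mice female and give the age at injection as 5 years, whereas the methods of the study give that age in weeks, describe a shorter stay at 8°C and include males. The mice of each group are called m1 to m6.

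NCOR1 is the large scaffold of the complex, which unliganded nuclear receptors and repressors such as BCL6 bring to their target genes. HDAC3 is its histone deacetylase and becomes active when bound to the scaffold, and GPS2 is a small subunit that bridges the scaffold and the TBL1 proteins. TBL1 and TBLR1 are closely related WD40-repeat proteins that hold the complex on deacetylated histone tails and also serve in the exchange of corepressors for coactivators when a receptor binds its ligand. Of the genes that cold and noradrenaline switch on in brown fat, Ucp1, the uncoupling protein that turns respiration into heat, is the best known. Whether this exchange acts on such genes was not tested.

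The table is one of 3′ ends, so the place of each gene's last exon matters for what was counted. In GRCm38, Tbl1xr1 spans chr3:22076652-22216594 on the plus strand, with 17 exons in its longest principal transcript and a last exon of 6194 bases. Tbl1x spans chrX:77511013-77662983 on the plus strand, with 16 exons and a last exon of 3269 bases. Ncor1 spans chr11:62316426-62458541 on the minus strand, with 46 exons and a last exon of 1605 bases. Gps2 is compact, at chr11:69913888-69916591 on the plus strand, with 11 exons and a last exon of 157 bases. Exons of Ncor1 overlap those of Pigl and Ttc19 on the opposite strand, by 82 bases and by 1 base, and Ttc19 meets the last exon of Ncor1. Whether reads were counted by strand is not given in the sources used here. Which exons are floxed is not given there either, and a 3′ tag that lies outside the deleted exons does not report the deletion.

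The promoter sequences of the pair of members whose levels did not overlap between genotypes at 8°C are shown because these genes differed together, with the bases directly upstream of the RefSeq transcription start (GRCm38.p6) as far as they lie in no annotated exon. Capitals mark GC boxes (GGGCGG, searched on both strands). Tbl1xr1 has 250 such bases at chr3:22076402-22076651 on the plus strand, and Ncor1 has 103 at chr11:62457333-62457435 on the minus strand. This Ncor1 start lies inside the annotated gene and is one of those that RefSeq lists.
Tbl1xr1: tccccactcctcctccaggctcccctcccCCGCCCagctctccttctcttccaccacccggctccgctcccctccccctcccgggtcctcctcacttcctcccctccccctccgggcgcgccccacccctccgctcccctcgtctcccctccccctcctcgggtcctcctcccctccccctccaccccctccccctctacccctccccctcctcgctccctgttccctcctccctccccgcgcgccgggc
Ncor1: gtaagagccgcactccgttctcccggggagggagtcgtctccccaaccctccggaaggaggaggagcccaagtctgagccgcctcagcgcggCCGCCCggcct
Both stretches hold a GC box, which 32.7% of the 32851 RefSeq windows of 250 bases hold as well, though the Ncor1 stretch is shorter than these windows. The window of Tbl1x also held a GC box, while those of Gps2 and of another listed Ncor1 start held none. The cAMP response element (TGACGTCA, both strands, overlapping no GC box) was in none of the 250-base windows of Tbl1xr1, Tbl1x, Ncor1 and Gps2 that the RefSeq table lists, against 1.5% of all windows. The window of Tbl1xr1 had a GC content of 76%, above the median of 52.4% over all windows. That of Tbl1x had 77.2%, that of Gps2 55.2%, and the windows of Ncor1 had 73.6% at the start shown and 36.8% at the other. No sequence was used for the remaining member.

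Total counts ran from 699703 in Cre- m4 at 30°C to 11527643, and at the low end of that range the members were read from as few as 18 tags of Tbl1xr1 and 3 of Hdac3. Of the genes in the table, 12485 passed the filter on low counts, all 5 members among them. No pair of libraries agreed within sampling noise. Brown adipocyte markers were all counted (12 of 12, none at 0 throughout a group), but the 6 hepatocyte markers, all counted, summed to between 22300 and 32800 CPM (counts scaled to library size, per 1e+06 tags) in every library, with albumin (Alb) at 5686 to 14390 CPM, above the 28.9 to 2076 CPM of Ucp1. Hepatocyte markers did not differ in any of the 5 contrasts (0 of 6 called). Every library also held both Xist (20.5 to 50.2 CPM) and the Y-linked Ddx3y (21.8 to 36.5 CPM). The part of other tissues or animals in the member values was not tested. The library numbers in the labels form separate blocks for 30°C and 8°C, so temperature and any handling that went with these blocks cannot be told apart.

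At 30°C, 1 library of each genotype lay with the other genotype. Cre- m6 had 38.6 CPM of Tbl1xr1, 53.5 CPM of Tbl1x and 284 CPM of Ncor1, whereas the other 5 Cre- mice reached at most 24.6, 45.5 and 241 CPM. BATdKO m6 had 17.0, 39.7 and 217 CPM of the same genes, and the other 5 BATdKO mice had at least 29.8, 53.4 and 261 CPM. A mean of log2 CPM over the 224 other genes called for genotype at 8°C, signed by their direction there, placed these libraries alike. The genes were called on the contrast of the 8°C groups, in a fit whose filter, scaling and dispersion also used the 30°C libraries. The score was -0.49 in Cre- m6 against -1.02 to -0.73 in Cre- m1 to m5, and -0.81 in BATdKO m6 against -0.58 to -0.49 in BATdKO m1 to m5. The library numbers and the mouse numbers of this pair are consecutive in the labels. The labels were used as deposited, and results on the members that rest on these mice, and calls that change without them, are given with and without them. This exclusion was chosen after the values were seen.

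**Figure D1:**
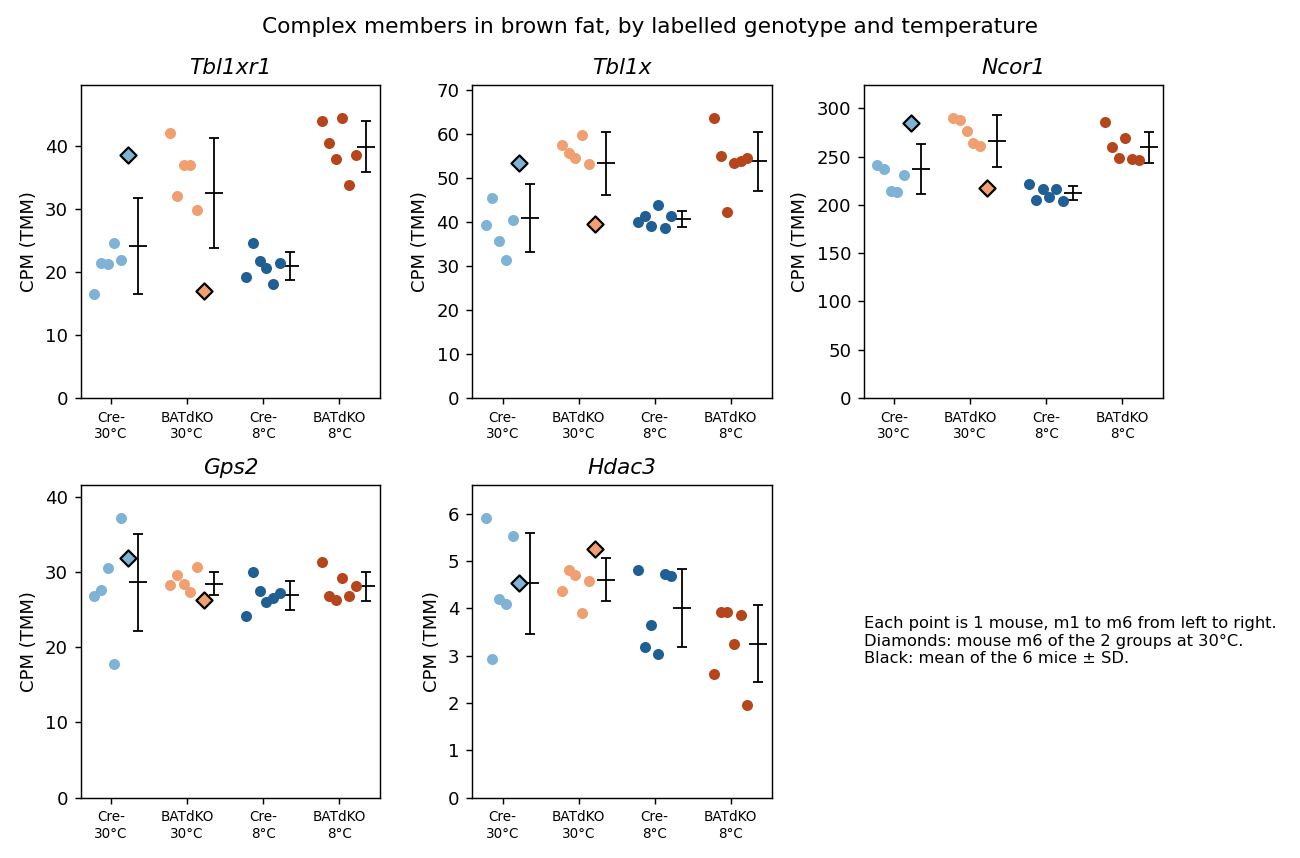
CPM (TMM-scaled, y axis from 0) of the 5 members in each mouse by labelled genotype and temperature, with the mean and SD of 6 mice in black. Tbl1xr1 and Ncor1 separate the groups at 8°C, and the diamonds at 30°C (38.6 CPM of Tbl1xr1 in Cre- m6, 17.0 CPM in BATdKO m6) sit with the other genotype, while Gps2 and Hdac3 overlap throughout.

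Genotype at 8°C asks how the complex differs between cold-exposed BATdKO and Cre- mice. Transcripts of Tbl1xr1, Tbl1x and Ncor1 were higher in libraries labelled BATdKO, and those of Gps2 and Hdac3 did not pass the test. The count is thus 3 of 5 members higher and 0 lower, in a comparison that called 227 of 12485 genes (1.82%) and called 87 genes higher (0.697%). The median log2 fold change was 0.29 over the members and -6.1e-05 over all genes. Both floxed genes were thus higher, not lower, under the label of their deletion, and as said above a 3′ tag may not report it. In bulk tissue, a change in the number of cells of a type and a change in RNA per cell cannot be told apart.

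Tbl1xr1, a target of the Cre, showed the largest difference of the members. Its levels ran from 18.2 through a median of 21.0 to 24.6 CPM in Cre- mice and from 33.8 through 39.5 to 44.3 CPM in BATdKO mice. Every BATdKO library lay above every Cre- library. The group means were 20.9 ± 2.2 and 39.9 ± 4.0 CPM (SD, n = 6 each), and the fitted difference was 1.90-fold (log2 0.92 ± 0.17 SE, adjusted p = 0.00349, edgeR quasi-likelihood test with Benjamini-Hochberg adjustment over all genes). This call held in all 24 fits that left out 1 mouse, with log2 values of 0.89 to 0.97.

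Tbl1x, the other floxed gene, lies on the X chromosome and encodes TBL1. In Cre- mice it ran narrowly from 38.7 through 40.7 to 43.8 CPM, and in BATdKO mice from 42.4 through 54.3 to 63.6 CPM. BATdKO m3 was the library within the Cre- range, and the other 5 lay above it. The difference was 1.31-fold (log2 0.39 ± 0.10 SE, edgeR adjusted p = 0.0633). The call was lost in 9 of 24 fits without 1 mouse (without Cre- m1, m3, m5 or m6, or BATdKO m1, m2, m4, m5 or m6 at 8°C), where log2 values over all 24 fits were 0.35 to 0.46 and adjusted p reached 0.151.

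Ncor1, the scaffold, is the member with the highest tag level in each group, and at 8°C its spread relative to its mean was smaller than that of the other members. Levels were 204 to 221 CPM in Cre- mice (median 212) and 246 to 286 CPM in BATdKO mice (median 254). The groups did not overlap. The means were 212 ± 7.2 and 260 ± 16 CPM (SD, n = 6 each), a 1.23-fold difference (log2 0.29 ± 0.07 SE, edgeR adjusted p = 0.0496). Without Cre- m4 or m6, or BATdKO m1 or m4, at 8°C the call was lost (adjusted p up to 0.115, log2 0.27 to 0.31 over the 24 fits), and so it was with total counts in place of TMM (log2 0.22, adjusted p = 0.124). Groups that do not overlap, as for Tbl1xr1 and Ncor1, occurred in 1.95% of all tested genes.

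Gps2, which joins the scaffold to the TBL1 proteins, was at 24.1 to 29.9 CPM in Cre- and 26.2 to 31.4 CPM in BATdKO mice, and the groups overlapped almost throughout (log2 0.06 ± 0.09 SE, edgeR adjusted p = 0.940). Hdac3, the deacetylase, was scarce in 3′ tags. Its counts at 8°C were 19 to 37 per Cre- library and 6 to 40 per BATdKO library, that is 3.03 to 4.82 and 1.96 to 3.93 CPM. The log2 difference of -0.25 ± 0.19 SE (edgeR adjusted p = 0.785) is of a size that counts this low resolve poorly. Hdac3 lies at chr18:37935844-37955016 on the minus strand, in 15 exons.

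The exact two-sided permutation test of log2 CPM was run for 5 members and 4 contrasts and adjusted over these 20 tests. Other genes enter this test only through the TMM scaling of the libraries. For genotype at 8°C it gave Tbl1xr1 and Ncor1 the smallest p that 6 against 6 allows (exact p = 0.00216, adjusted 0.0216) and Tbl1x p = 0.00433 (exact, adjusted 0.0289). Gps2 (exact p = 0.297) and Hdac3 (exact p = 0.167) did not pass.

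Skeletal muscle markers did not pass the test for genotype at 8°C, but had lower values in BATdKO mice. Their sum (7 of 8 markers counted, none at 0 throughout a group) was 17.7 to 1257 CPM in Cre- and 7.83 to 137 CPM in BATdKO mice, and the median log2 difference over these markers was -3.04, with 7 of 7 at an unadjusted p under 0.05, as were 1153 of all genes (9.24%), and none called. Summed brown adipocyte markers were 2799 to 5153 and 3144 to 6062 CPM, and 1 of 12, the β3-adrenergic receptor gene Adrb3, was called, lower (log2 -0.98 ± 0.26 SE, edgeR adjusted p = 0.0592). The single B cell marker that was counted, Ighm, was higher in BATdKO mice (log2 1.46 ± 0.16 SE, edgeR adjusted p = 5.1e-06). Summed endothelial markers were 155 to 212 and 152 to 211 CPM, and macrophage markers 119 to 183 and 136 to 152 CPM, with 0 of 6 called in each list. Summed stromal and progenitor markers were 152 to 245 and 135 to 163 CPM (0 of 6 called), and smooth muscle markers 8.25 to 21.1 and 7.43 to 16.8 CPM (0 of 2 tested called). The part of these cell types in the member differences was not tested.

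Genotype at 30°C gives the same comparison without cold. With all 24 mice, no member was called, in a comparison that called no gene at all (0 of 12485, 0%, edgeR), although 1303 genes (10.4%) had an unadjusted p under 0.05 and DESeq2 called 90. Of the members, 3 of 5 had an unadjusted p under 0.05. These were Tbl1xr1 (log2 0.44 ± 0.17 SE, edgeR adjusted p = 0.360), Tbl1x (log2 0.35 ± 0.11 SE, edgeR adjusted p = 0.205) and Ncor1 (log2 0.16 ± 0.07 SE, edgeR adjusted p = 0.431). Tbl1xr1 ran from 16.4 through 21.7 to 38.6 CPM in Cre- and from 17.0 through 34.5 to 42.0 CPM in BATdKO mice, and each group had its m6 at the end nearest the other genotype. Tbl1x ran from 31.4 through 39.9 to 53.5 CPM and from 39.7 through 55.1 to 59.9 CPM, with the same 2 mice at those ends. Ncor1 ran from 213 through 234 to 284 CPM and from 217 through 270 to 289 CPM, and again both m6 libraries were at the end nearest the other group.

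Without both mice m6 at 30°C, Tbl1xr1, Tbl1x and Ncor1 were each higher in BATdKO mice at 30°C, as they were at 8°C. The log2 differences were 0.80 ± 0.11 SE for Tbl1xr1 (edgeR adjusted p = 0.000113), 0.51 ± 0.09 SE for Tbl1x (edgeR adjusted p = 0.0019) and 0.27 ± 0.06 SE for Ncor1 (edgeR adjusted p = 0.0184). With 5 mice a group, none of these members overlapped between genotypes, and each reached the smallest exact permutation p that 5 against 5 allows (0.00794). That fit called 500 of 12500 genes (4%) for genotype at 30°C and 324 (2.59%) for genotype at 8°C, where the same 3 members were called. These mice were left out for their values of these genes, which by itself favours groups without overlap. The 30°C calls, the lack of overlap and the exact p-values are therefore a description and support nothing. How many of all genes had no overlap in this comparison was not counted. Leaving out Cre- m6 alone gave calls of Tbl1x and Tbl1xr1, and leaving out BATdKO m6 alone gave a call of Tbl1x.

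Gps2 and Hdac3 did not share the pattern at 30°C. Gps2 was at 17.8 to 37.1 CPM in Cre- and 26.3 to 30.7 CPM in BATdKO mice (log2 -0.07 ± 0.09 SE, edgeR adjusted p = 0.878), and the lowest value, in Cre- m4, rests on 13 tags. Hdac3 was at 2.93 to 5.90 and 3.91 to 5.26 CPM (log2 -0.01 ± 0.18 SE, edgeR adjusted p = 1.00). In both genes the range of BATdKO mice lay within that of Cre- mice. Among markers at 30°C, summed skeletal muscle markers were 9.57 to 7403 CPM in Cre- and 28.9 to 533 CPM in BATdKO mice, and brown adipocyte markers 754 to 4403 and 1309 to 4314 CPM. Skeletal muscle markers had a median log2 difference of -3.42 with all mice (7 of 7 at an unadjusted p under 0.05, none called), and without both m6 4 of 7 were called lower in BATdKO mice, while 6 of 12 brown adipocyte markers were called higher and the smooth muscle gene Acta2 was called lower. The part of these cell types in the member differences at 30°C was not tested. Ucp1 itself, at 547.9 CPM in Cre- m6 and at most 133 CPM in the other Cre- mice, and at 84.7 CPM in BATdKO m6 and at least 217 CPM in the other BATdKO mice, followed the same order.

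**Figure D2:**
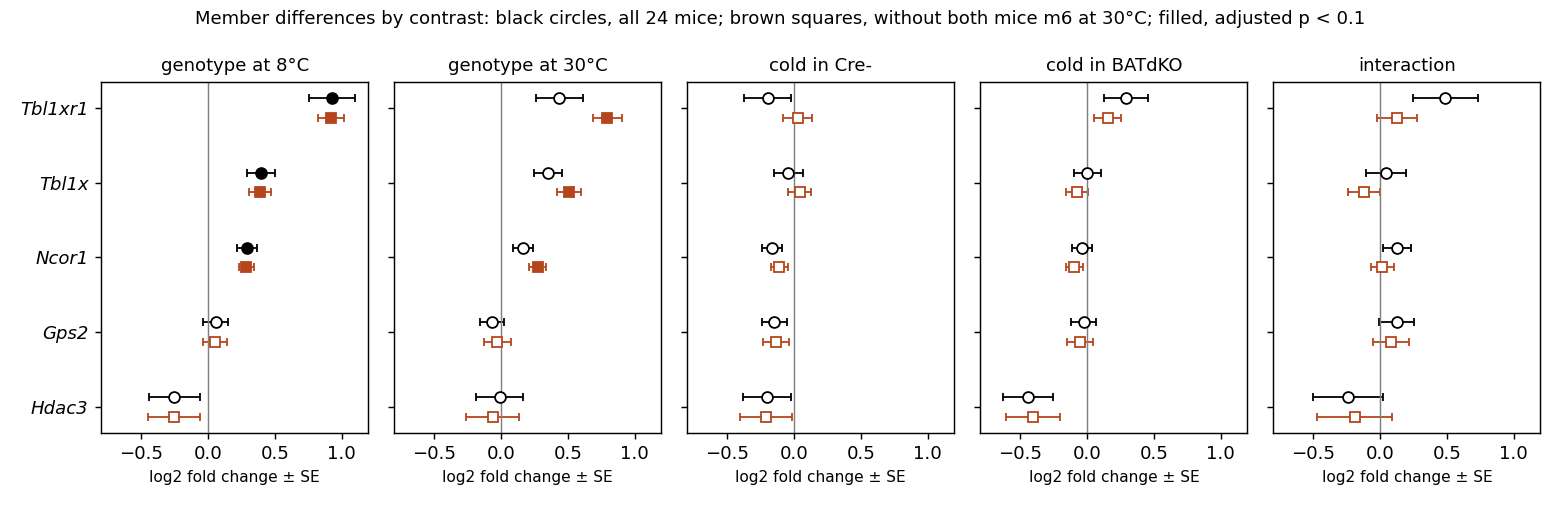
Fitted log2 fold changes ± SE (x axis) of the 5 members in the 5 contrasts, from all 24 mice (black circles) and without both mice m6 at 30°C (brown squares), with filled symbols for an edgeR adjusted p under 0.1. Tbl1xr1, Tbl1x and Ncor1 were called for genotype at 8°C in both fits and for genotype at 30°C in the fit without these mice, and no member was called for cold or for the interaction.

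Cold asks whether the complex is regulated between 30°C and 8°C. The cold response itself was large in these libraries, since Ucp1 rose 8.56-fold in Cre- mice (log2 3.10 ± 0.44 SE, edgeR adjusted p = 2.67e-05) and 5.82-fold in BATdKO mice (log2 2.54 ± 0.43 SE, edgeR adjusted p = 0.000389). Without both m6 these were 14.8-fold and 5.07-fold. No member passed the test in either genotype, where 1143 genes (9.15%) were called in Cre- and 883 (7.07%) in BATdKO mice. In Cre- mice, all 5 members had values a little below 0, from log2 -0.20 for Tbl1xr1 and Hdac3 through -0.16 for Ncor1 and -0.15 for Gps2 to -0.04 for Tbl1x, with a member median of -0.16 against -0.02 over all genes. Adjusted p-values (edgeR) were 0.225 to 0.896. For Tbl1xr1 and Tbl1x this sign rested on m6, and without both m6 their values were 0.03 ± 0.11 and 0.04 ± 0.09 (log2 ± SE). In BATdKO mice, Tbl1xr1 was at log2 0.29 ± 0.17 SE, Hdac3 at -0.44 ± 0.19 SE (edgeR adjusted p = 0.204), and Tbl1x, Ncor1 and Gps2 were between -0.04 and 0.003.

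The tests differed on Hdac3 in BATdKO mice. Its levels ran from 3.91 through 4.64 to 5.26 CPM at 30°C and from 1.96 through 3.55 to 3.93 CPM at 8°C, and the ranges overlapped by a narrow margin. The exact permutation test gave p = 0.00649 (adjusted over 20 tests 0.0324), but in edgeR, over all genes, the adjusted p was 0.204, and without both m6 the permutation test no longer passed (exact p = 0.0195, adjusted 0.0557). Ncor1 in Cre- mice had an exact permutation p of 0.0238 (adjusted 0.0867). When libraries were scaled by total counts alone, the median of all genes fell by 0.18 in Cre- and by 0.19 in BATdKO mice on the log2 scale, and Ncor1 and Gps2 in Cre- mice and Ncor1 and Hdac3 in BATdKO mice were then called lower (log2 -0.33, -0.32, -0.23 and -0.63). Relative to that shift they stood at -0.16, -0.14, -0.04 and -0.44.

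The interaction asks whether the genotype difference depends on temperature. No member was called, in a contrast with 12 calls (0.0961%) and 1005 genes (8.05%) at an unadjusted p under 0.05, of which 0 were members. Tbl1xr1 came closest, with a genotype difference larger at 8°C by log2 0.49 ± 0.24 SE (edgeR unadjusted p = 0.0555, adjusted p = 0.632). Without both m6 this was 0.13 ± 0.15 SE (edgeR adjusted p = 0.794). The other members were between -0.24 and 0.13 with all mice. The contrasts share groups, so their values are set side by side and not related to each other.

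The order of the 4 groups can be read per gene, first with all mice. For Tbl1xr1 the means rose from 20.9 CPM (Cre- 8°C) through 24.0 (Cre- 30°C) and 32.5 (BATdKO 30°C) to 39.9 CPM (BATdKO 8°C), and no pair of neighbours in that order passed the test. For Tbl1x the order was 40.7, 41.0, 53.4 and 53.8 CPM for Cre- 8°C, Cre- 30°C, BATdKO 30°C and BATdKO 8°C, and again no pair of neighbours passed. Ncor1 ran from 212 (Cre- 8°C) through 237 (Cre- 30°C) and 260 (BATdKO 8°C) to 266 CPM (BATdKO 30°C), where the middle pair shares neither genotype nor temperature and was not tested. Means of Gps2 all lay between 26.9 and 28.6 CPM, and those of Hdac3 between 3.25 and 4.60 CPM. Without both m6, the means at 30°C were 38.5 CPM in Cre- and 56.2 CPM in BATdKO mice for Tbl1x, so that the order within each genotype turned, 21.1 and 35.6 CPM for Tbl1xr1 and 227 and 276 CPM for Ncor1. The genotype pair at 30°C then passed for all 3 genes, as given above.

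Ratios of members within a library remove the scaling between libraries. They were taken as differences of log2 CPM for Tbl1xr1 to Tbl1x, and for each floxed gene to the mean of Ncor1, Hdac3 and Gps2, in the 4 contrasts with 2 groups (12 exact two-sided permutation tests). At 8°C, the log2 ratio of Tbl1xr1 to Tbl1x was -0.96 ± 0.14 in Cre- and -0.43 ± 0.19 in BATdKO mice (SD, n = 6 each), without overlap. The difference of 0.53 had an exact p of 0.00216 (adjusted 0.013), so the floxed genes differed unequally between genotypes. Tbl1xr1 to the other members differed by 0.90 (exact p = 0.00216, adjusted 0.013), and Tbl1x to the other members by 0.37 (exact p = 0.00866, adjusted 0.0324).

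The ratio of Tbl1x depended on its reference. Against Ncor1 alone its difference at 8°C was 0.10 (exact p = 0.199) and against Hdac3 alone 0.69 (exact p = 0.0216, adjusted 0.0624), neither of which passed, whereas Tbl1xr1 passed against each of the 3 references. At 30°C the log2 ratio of Tbl1xr1 to Tbl1x was -0.79 ± 0.35 in Cre- and -0.76 ± 0.27 in BATdKO mice (SD, n = 6 each; exact p = 0.840), and without both m6 the difference was 0.19 (exact p = 0.310). With cold in BATdKO mice, Tbl1xr1 rose against the other members by 0.52 (exact p = 0.0108, adjusted 0.0324), a value of 0.36 (adjusted 0.0571) without both m6 by the same exact test. Hdac3, the scarcest member, takes part in that reference. The log2 CPM differences in that contrast with all mice were 0.34 for Tbl1xr1, -0.03 for Ncor1, -0.02 for Gps2 and -0.50 for Hdac3. Part of the 0.52 is thus the lower value of Hdac3.

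**Figure D3:**
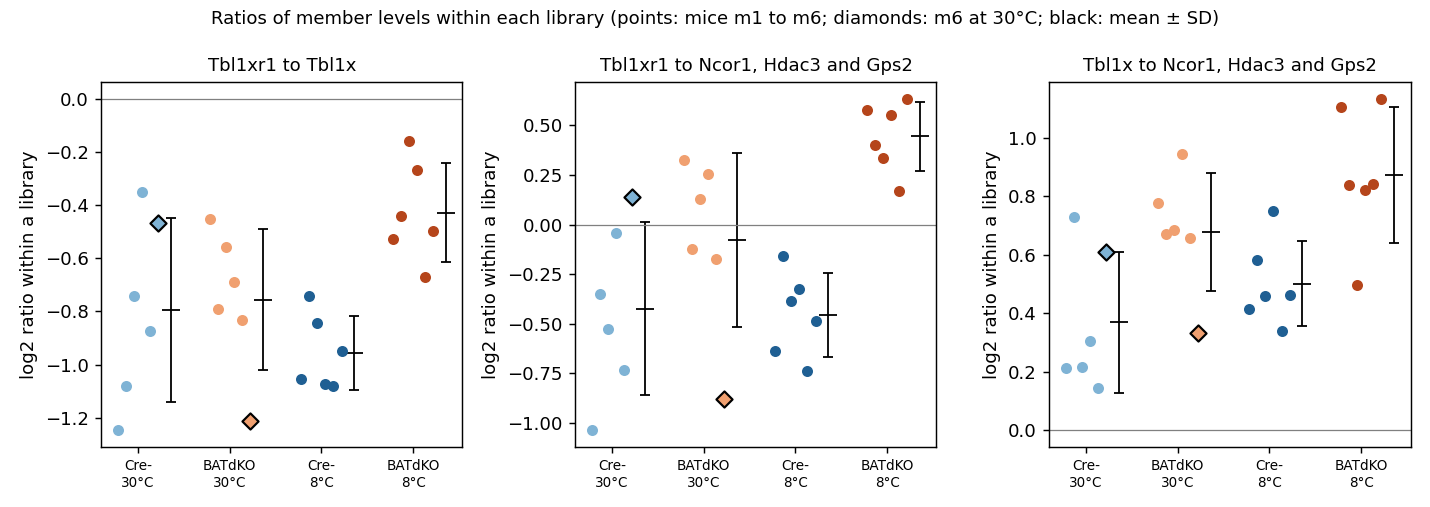
Log2 ratios of member levels within each library (y axes) by group, with 6 mice each and mean ± SD in black. In the ratio of Tbl1xr1 to Tbl1x, BATdKO mice at 8°C sit between -0.67 and -0.16 and Cre- mice at 8°C between -1.08 and -0.74, whereas the groups at 30°C overlap.

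Within groups, mice with more of one member could also have more of another. Of the 10 pairs of members, 3 passed after subtraction of group means (24 mice, permutation of mice within groups, adjusted over 10 pairs). Tbl1x and Ncor1 had r = 0.79 (permutation p = 0.00056, adjusted 0.0056, rho = 0.54, permutation p = 0.0137, adjusted 0.0685). Tbl1xr1 and Ncor1 had r = 0.70 (permutation p = 0.0133, adjusted 0.0443, rho = 0.44, permutation p = 0.0442, adjusted 0.111). Tbl1x and Tbl1xr1 had r = 0.65 (permutation p = 0.0114, adjusted 0.0443, rho = 0.57, permutation p = 0.00942, adjusted 0.0685). None of the rank correlations passed after adjustment.

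These correlations rest on both m6 libraries at 30°C. Without the 2 mice farthest from the median of the x gene they were 0.75, 0.78 and 0.77, but those mice were others. Without both m6 they were 0.52 (permutation p = 0.0482, adjusted 0.316), 0.01 (permutation p = 0.956) and 0.08 (permutation p = 0.752). The remaining 7 pairs ranged from r = -0.33 to 0.51, and none passed. Among them, Hdac3 had r between -0.33 and -0.01 with each other member.

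**Figure D4:**
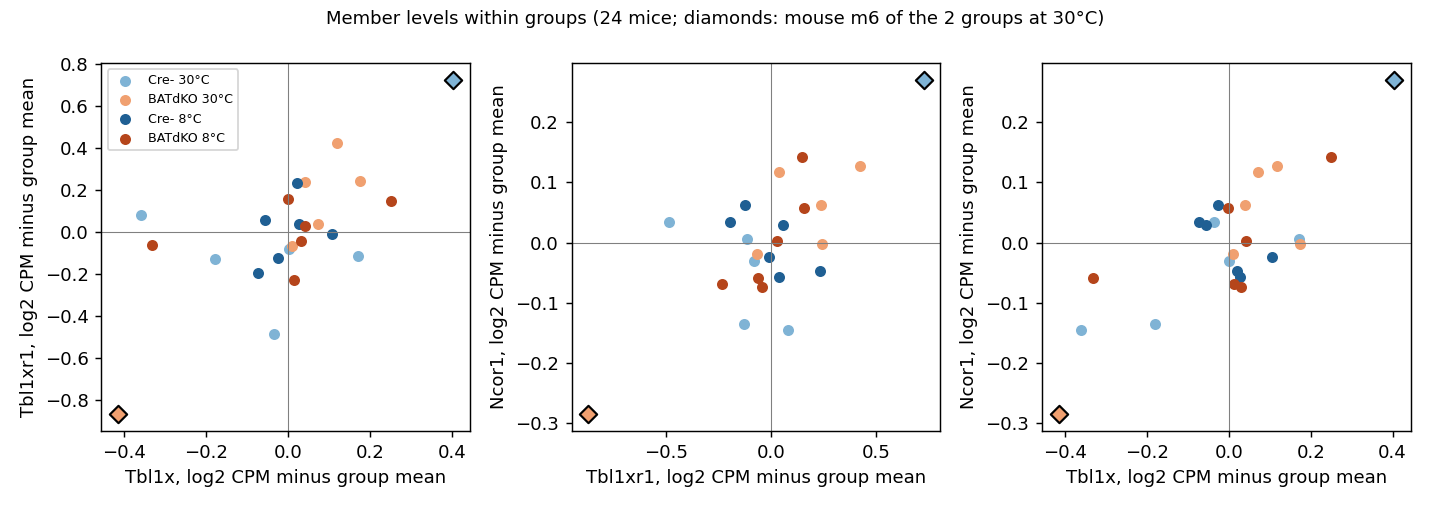
Log2 CPM of pairs of members minus the group mean (both axes), 1 point per mouse and 24 mice in each panel. The diamonds, m6 of Cre- and of BATdKO mice at 30°C, stand at opposite corners of each panel, and without them r falls from 0.65 to 0.08, from 0.70 to 0.01 and from 0.79 to 0.52.

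Genes whose levels across the 24 mice were most like a member were sought among 6110 others with a mean of at least 10 CPM (6111 for Hdac3), as a description in which libraries share scaling and group. For Tbl1xr1 these were Nabp1, a single-stranded DNA binding protein (r = 0.90), Rnf166, a RING-type ubiquitin ligase (r = 0.88), and Elmod2 (r = 0.88). For Tbl1x they were Col4a2, a chain of basement membrane collagen (r = 0.90), the sialyltransferase gene St3gal6 (r = 0.86) and Rnf166 (r = 0.85). For Ncor1 they were St3gal6 (r = 0.93), the zinc finger gene Zfp703 (r = 0.90) and Col4a1, the other common chain of that collagen (r = 0.90). Of these 7 genes, all but Rnf166 were called higher in BATdKO mice at 8°C, from log2 0.57 ± 0.16 SE (Col4a1, edgeR adjusted p = 0.0844) to 2.84 ± 0.56 SE (Nabp1, edgeR adjusted p = 0.00546). Hdac3 (Uxs1, Calcoco1 and Selenow, r = 0.71 to 0.81) and Gps2 (Mocs1, Lrtm1 and Eif2b4, r = 0.79 to 0.81) had other genes at the top, none of them called for genotype at 8°C. Over all genes, 1.82% were called in that contrast and 0.697% were called higher. Group differences were left in these correlations, so the presence or absence of calls follows in part from the choice of genes.

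The other genes of corepression give the setting. The other class I deacetylases Hdac1, Hdac2 and Hdac8 had 0 of 3 calls in every contrast. For genotype at 8°C there were 0 of 13 calls in the Sin3 complex, 0 of 9 in NuRD and 0 of 5 among corepressor turnover enzymes. List medians of log2 fold changes were 0.04, 0.06 and 0.05.

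In the CoREST complex 1 of 6 genes was called for genotype at 8°C. Rcor3, one of its scaffolds, was lower in BATdKO mice (log2 -0.50 ± 0.12 SE, edgeR adjusted p = 0.0319). Among 14 tested receptors and factors that recruit NCoR, 1 was called at 8°C. This was Bcl6, a repressor that binds NCOR1, at 24.5 ± 5.0 CPM in Cre- and 40.6 ± 4.8 CPM in BATdKO mice (SD, n = 6 each), 1.64-fold higher (log2 0.71 ± 0.13 SE, edgeR adjusted p = 0.00328). List medians were -0.13 for CoREST and -0.08 for the receptors. Coactivators (0 of 9) and PRDM16 with its partners (0 of 5) had no call at 8°C, and the medians were -0.04 and -0.17. At 30°C, no gene of these lists was called with all mice. Without both m6, 1 of 9 genes of NuRD, the remodeller Chd4 (log2 0.34 ± 0.09 SE, edgeR adjusted p = 0.0312), and 1 of 9 coactivators, Ppargc1a (log2 0.58 ± 0.16 SE, edgeR adjusted p = 0.0507), were called higher in BATdKO mice. For these and the preceding lists, the share called over all genes was 1.82% for genotype at 8°C. At 30°C without both m6 it was 4%, in a fit that is a description only, as said above.

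Calls for cold in the other lists are to be read against the 9.15% of all genes called in Cre- and 7.07% in BATdKO mice (13.2% and 6.13% without both m6). At these shares the absence of a call among 5 members is not a result about them. In Cre- mice, 2 of 9 coactivators rose, namely Ppargc1a, the cold-inducible coactivator of mitochondrial genes (2.40-fold, log2 1.27 ± 0.16 SE, edgeR adjusted p = 3.71e-06), and its relative Ppargc1b (1.41-fold, log2 0.49 ± 0.13 SE, edgeR adjusted p = 0.0233). In BATdKO mice, 1 of 9 rose, again Ppargc1a (1.93-fold, log2 0.95 ± 0.15 SE, edgeR adjusted p = 0.00023). Of 13 genes of the Sin3 complex, 2 fell in Cre- mice (Arid4a, log2 -0.27 ± 0.08 SE, and Sap130, log2 -0.32 ± 0.11 SE) and 1 in BATdKO mice (Sap130, log2 -0.61 ± 0.11 SE). Gatad2b of NuRD fell in both (log2 -0.26 ± 0.06 SE and -0.27 ± 0.06 SE), and in BATdKO mice its remodeller Chd4 fell and its relative Chd3 rose (log2 -0.28 ± 0.09 SE and 0.23 ± 0.07 SE), of which the call of Chd4 was lost without both m6 (log2 -0.24 ± 0.08 SE, edgeR adjusted p = 0.108). In CoREST, Rcor3 fell in BATdKO mice (log2 -0.68 ± 0.12 SE), and Hmg20b rose in Cre- mice (log2 0.29 ± 0.10 SE). Among recruiting factors, 0 of 14 were called in Cre- mice, and in BATdKO mice Bcl6 rose and Nr1d1, the heme-binding repressor REV-ERBα that recruits NCoR, fell (log2 0.43 ± 0.13 SE and -0.48 ± 0.14 SE). Both calls were lost without both m6, where 0 of 14 were called (Bcl6 log2 0.35 ± 0.12 SE, edgeR adjusted p = 0.116, and Nr1d1 log2 -0.37 ± 0.13 SE, edgeR adjusted p = 0.108). Of PRDM16 and its partners, 1 of 5 rose in each genotype, Cebpb (log2 0.87 ± 0.14 SE in Cre- and 0.48 ± 0.14 SE in BATdKO mice). Without both m6, 2 of 5 rose in Cre- mice, Cebpb and Prdm16, a determinant of brown fat identity (log2 1.16 ± 0.33 SE, edgeR adjusted p = 0.0246). Among markers, 5 of 12 brown adipocyte markers were called higher and 1 lower with cold in each genotype, 2 of 6 endothelial markers higher in Cre- and 1 of 6 in BATdKO mice, 3 of 6 stromal and progenitor markers lower in BATdKO mice and 1 of 7 skeletal muscle markers lower in Cre- mice. Ighm was higher with cold in BATdKO mice (log2 1.01 ± 0.15 SE, edgeR adjusted p = 0.000128) and was called in the interaction (log2 1.32 ± 0.22 SE, edgeR adjusted p = 0.0185). Of 5 sex-linked genes, 1 was called with cold in BATdKO mice, namely Xist. It was lower with all mice (log2 -0.52 ± 0.17 SE, edgeR adjusted p = 0.0802) and without both m6 (log2 -0.53 ± 0.18 SE, edgeR adjusted p = 0.0927). No sex-linked gene was called in the other contrasts. Without both m6, cold in Cre- mice called 9 of 12 brown adipocyte markers higher and 1 lower, 4 of 7 skeletal muscle and 1 of 6 stromal markers lower, and cold in BATdKO mice called 5 of 12 brown adipocyte markers higher and 2 lower and 2 of 6 stromal and 1 of 6 macrophage markers lower. Their part in these values was not tested. Whether these changes differed between genotypes was tested by the interaction, in which 0 genes of the corepressor, recruiting factor, coactivator and PRDM16 lists were called, with or without both m6. Of 12 brown adipocyte markers, 0 were called in it with all mice and 2 without both m6, both lower. These were Cidea (log2 -1.48 ± 0.28 SE, edgeR adjusted p = 0.0211) and Ucp1 (log2 -1.55 ± 0.35 SE, edgeR adjusted p = 0.0651), in a fit that called 44 of 12500 genes (0.352%). The mice left out of that fit were chosen after their values were seen, and their Ucp1 levels stood apart, as given above. These interaction calls are thus a description only.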

How the data were processed

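Libraries were made with Lexogen's QuantSeq 3′ forward kit. The authors used BBDuk for trimming, STAR for alignment of the forward read to GRCm38 and Rsubread for counting, and removed outlying samples after quality control, without naming them in the sources used here. The deposited table holds unnormalized counts of 24 libraries, which may include such samples. The submitters' processing notes also name DESeq2. The annotation release and the strand setting are not given in the sources used here. Columns were matched to samples by the library name in the labels. Of 12615 genes, 12608 were matched to a symbol. One gene list is not reported here. The members and gene lists were chosen with earlier results of these data known.

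Counts were analysed with edgeR 4.0.16 in R 4.3.3 (TMM, filterByExpr on the 4 groups, which kept 12485 genes and removed 130, quasi-likelihood test of a mean per group, Benjamini-Hochberg adjustment over all tested genes, threshold 0.1), and the fit was tested on simulated data. CPM used TMM library sizes, and log2 CPM a prior count of 2. Permutation tests used a threshold of 0.05, with 100000 resamples for correlations. Whether mice were caged or processed together is not stated, so p-values measure the spread between these samples. Genes named are all members, up to 4 called genes per list and contrast by smallest p, and the 3 genes most like each member; St3gal6 and Rnf166 count for both their members, and Ucp1, Xist and the Y-linked genes served as checks. Alb, Hdac1, Hdac2, Hdac8, Ttc19 and Pigl fall outside this rule and were named after their values were seen. Alternatives were DESeq2 1.42.0, RLE factors, total counts, other filters on low counts, robust dispersion, fits of 2 groups, each mouse left out, a prior count of 0.5, ranks, single reference genes, and the libraries without the lowest total.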

Additional observations from a re-analysis of the deposited data

Results flagged for a closer look

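Of 20 sets of 6 CPM values (5 members in 4 groups), 2 held a mouse whose gap to its neighbour exceeded Dixon's 95% limit of 0.625 of the range, where chance alone flags about 1 in 20. Tbl1xr1 was at 38.6 CPM in Cre- m6 at 30°C, next to 24.6 CPM in the nearest mouse and 16.4 CPM in the lowest (gap 0.632 of the range). Tbl1x was at 39.7 CPM in BATdKO m6 at 30°C, next to 53.4 CPM in the nearest mouse and 59.9 CPM in the highest (gap 0.678 of the range).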

How the results depend on the processing

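The calls of Tbl1xr1, Tbl1x and Ncor1 for genotype at 8°C held under every planned setting other than leaving out a mouse, except that Ncor1 (log2 0.22) was not called with total counts. Without 1 mouse, log2 values were 0.35 to 0.46 for Tbl1x and 0.27 to 0.31 for Ncor1, and calls were lost as given above. The count of genes called for genotype at 8°C was 477 with the 2 groups alone and 138 (without BATdKO m5 at 8°C) to 276 without 1 mouse. With total counts, 22.6% of calls at 8°C were higher against 38.3% with TMM, 13.3% against 60.8% for cold in Cre-, 9.07% against 53.2% for cold in BATdKO and 44.4% against 58.3% for the interaction. Counts with total counts were 3259 for cold in Cre-, 2812 for cold in BATdKO and 27 for the interaction. Without 1 mouse, cold in BATdKO called 574 (without BATdKO m4 at 8°C) to 1069 genes. Genotype at 30°C called 90 genes with DESeq2, 500 without both m6, and 0 to 369 without 1 mouse, of which 369 without Cre- m6, 67 without Cre- m2, 47 without BATdKO m4 and 41 without BATdKO m6 at 30°C. The interaction called 21 genes with robust dispersion, 51 with DESeq2, 44 without both m6 and 7 to 37 without 1 mouse.

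Values near 0 that were not called changed sign. For Tbl1x, cold in BATdKO was -0.19 with total counts, -0.0058 without a filter, -0.00447 with the 2 groups alone, -0.00110 with DESeq2, -0.078 without both m6 and -0.077 to 0.061 without 1 mouse, and its log2 CPM difference was -0.070 without both m6 and -0.33 in mean ranks. Gps2 was -0.0089 at 8°C with total counts and at 30°C -0.11 to 0.015 without 1 mouse and -0.67 in mean ranks. Hdac3 at 30°C was -0.13 to 0.11 without 1 mouse. For cold in Cre-, Tbl1x was 0.042 without both m6 and -0.094 to 0.052 without 1 mouse, and Tbl1xr1 was 0.027 and -0.31 to 0.033. The interaction of Tbl1x was -0.12 without both m6 and -0.052 to 0.10 without 1 mouse. For the log2 ratio Tbl1xr1 to the other members, cold in Cre- was 0.00040 against Ncor1, 0.0011 against Hdac3 and 0.081 without both m6. Without both m6, r was -0.040 for Tbl1xr1 and Gps2, 0.11 for Ncor1 and Hdac3 and 0.0044 for Hdac3 and Gps2. The causes were not tested. Hdac3 had the lowest range of tags among the members, at 3 to 75 a library. No paired analysis was possible because the mouse numbers in the labels are shared by no groups.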
